A study of Mus musculus with 36 samples.

Results

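The genes described here are the ERK pathway feedback genes of mouse fibroblasts: the phosphatases Dusp4, Dusp5 and Dusp6, the Ets transcription factors Etv4 and Etv5, the Sprouty genes Spry1, Spry2 and Spry4, and the Sprouty-related genes Spred1 and Spred2. They were taken by symbol from the 54735 symbols of the deposited expression matrix, and all 10 were found there. All 10 also passed the filter for low values, which asked for at least 1 TPM in at least 3 libraries and left 16083 genes for testing. TPM, transcripts scaled to a fixed total per library, is corrected for transcript length, so levels of different genes can be set side by side. The set was chosen by the responses of Dusp6 and Etv5 to amino acid starvation and to thapsigargin, which differ. Values of those 2 genes are therefore given as a description, with no test in any comparison, and the other 8 genes carry the tests.

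The study looked for transcripts that mark one of the stress kinases GCN2 and PERK and not the other. The libraries came from mouse embryonic fibroblasts (MEFs) of 3 lines: wild type (WT), a line with the genotype "GCN2 delete" (here GCN2del) and a line with the genotype "PERK delete" (PERKdel). GCN2 is the kinase that senses uncharged tRNA when amino acids run short, and PERK is the kinase that senses unfolded protein in the endoplasmic reticulum. Each line was left untreated, given DMSO, starved for 6 h without lysine and arginine in the medium (AAS in the labels), or treated with 200 nM thapsigargin for 6 h. Thapsigargin inhibits the SERCA calcium pump and is usually dissolved in DMSO, and the untreated and DMSO cells carry the same genotype as the stressed cells of their line. The 12 groups hold 3 libraries each, 36 in all, which the labels call technical replicates, so every p-value measures the spread between such replicates of 1 line per genotype. A difference between lines can thus not be told apart from a difference between genotypes. The labels do not say whether the deletion lines are clones or pools, how long DMSO was applied, or whether untreated cells had a change of medium when the starved cells had theirs.

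ERK is the last kinase of the cascade that runs from growth factor receptors through Ras, Raf and Mek. Active ERK switches on, through Ets factors, serum response factor and relief of the repressor capicua, a set of immediate and delayed genes, and part of that set turns the cascade down again. In fibroblasts the transcripts of these feedback genes are commonly read as a measure of ERK output, although protein activity itself was not measured in these libraries.

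Dusp6 and Etv5 were chosen because their responses differ, and Dusp5 followed the 4 treatments in nearly the same way as Dusp6. The bases just before the transcription starts of these genes are shown as a description. A link of sequence to response was not tested. The sequences are from RefSeq on GRCm38.p6, written 5′ to 3′ on the gene's strand, and were cut to bases outside annotated exons. Windows of 7 of the 10 genes were searched, 8 windows in all. The other genes of the set were not searched, so it is not stated whether they have such a window or what it holds. Capitals mark the core of an Ets site (GGAA, or TTCC where it lies on the other strand) and, in Dusp5, also the CArG boxes, the sites bound by serum response factor.
Dusp6, chr10:99262981-99263230, plus strand: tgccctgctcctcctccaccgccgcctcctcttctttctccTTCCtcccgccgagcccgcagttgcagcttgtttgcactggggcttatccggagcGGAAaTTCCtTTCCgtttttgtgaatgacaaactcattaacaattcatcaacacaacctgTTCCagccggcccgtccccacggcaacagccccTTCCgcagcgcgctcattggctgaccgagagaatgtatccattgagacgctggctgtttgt
Dusp5, chr19:53528895-53529108, plus strand: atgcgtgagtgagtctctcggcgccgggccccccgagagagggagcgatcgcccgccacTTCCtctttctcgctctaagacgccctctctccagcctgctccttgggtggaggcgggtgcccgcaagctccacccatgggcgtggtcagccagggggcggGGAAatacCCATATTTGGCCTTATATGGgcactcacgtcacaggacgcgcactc
Etv5, chr16:22439720-22439820, minus strand: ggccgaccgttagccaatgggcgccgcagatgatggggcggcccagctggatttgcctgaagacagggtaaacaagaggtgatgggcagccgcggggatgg
Etv5, second start, chr16:22438369-22438618, minus strand: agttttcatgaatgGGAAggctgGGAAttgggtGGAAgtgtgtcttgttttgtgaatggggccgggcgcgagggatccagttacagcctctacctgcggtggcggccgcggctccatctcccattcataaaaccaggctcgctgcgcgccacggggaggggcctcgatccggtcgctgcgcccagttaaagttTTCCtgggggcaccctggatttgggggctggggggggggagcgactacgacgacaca
The Dusp6 window held 6 Ets cores, that of Dusp5 held 3, of which 2 lie in the printed bases, and the windows of Etv5 held 0 and 4. The second Etv5 start is from RefSeq, and the bases checked after it were not found in a GENCODE transcript of the gene. An Ets core is short and was found, on either strand, in 93.4% of all 32851 promoter windows of the same length and in 7 of the 8 windows of these genes. The pair of adjacent CArG boxes of Dusp5 began at positions -82 and -72. These are counted from the RefSeq start, the base after 53529144, which lies downstream of the annotated gene start to which the printed bases were cut. Such a box was found in 1.47% of all windows and in 1 of the 8. The search also covered CCGGAA (12% of all windows), the capicua octamers TGAATGAA (1.08%) and TGAATGGA (1.01%), TGACGTCA (1.55%), TGACTCA (4.46%) and TGATGNAAT (0.816%), on both strands, and matched none of the 8 windows. The longer Ets site CCGGAA overlaps the core, and all of these matches describe letters only.

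Among libraries of a group, correlation across genes was 0.9621 to 0.9876. Eif2ak4, the gene of GCN2, stood at 24.6 ± 3.81 TPM (SD, n = 3) in untreated WT cells and at 5.25 ± 0.619 in untreated GCN2del cells. Eif2ak3, the gene of PERK, stood at 6.99 ± 0.878 TPM in untreated WT cells and at 4.22 ± 0.353 in PERKdel cells, and with thapsigargin at 11.7 ± 1.17 and 8.61 ± 0.606 TPM, and which exons were deleted is not stated. Fibroblast markers were present, with all 10 of the list reaching 1 TPM and sums of 3049.96 to 7011.46 TPM by library, although Dcn was at 0 in some libraries. Vim (1394 to 3184 TPM) and Fn1 (535 to 1809 TPM) made up much of those sums, while Col1a1 ranged from 8.94 to 1589 TPM, Col3a1 from 0.203 to 270.4 TPM and Pdgfra from 0.206 to 33.1 TPM across libraries. None of the 6 epithelial markers reached 1 TPM (sums of 0.221 to 1.47 TPM). The leukocyte gene Ptprc stayed at or below 0.198 TPM, while Cd68 of the same list stood at 2.65 to 10.3 TPM. Neural markers summed to 14.9 to 45.6 TPM by library, with Tubb3 up to 44.8, Map2 up to 15.1 and Sox2 up to 6.17 TPM. Endothelial and muscle markers summed to at most 6.84 and 4.54 TPM. Transcripts of microRNA genes took 0.803% to 3.57% of the TPM of a library and passed 2% in 6 libraries, namely WT untreated 1, GCN2del DMSO 1 and thapsigargin 2, and PERKdel untreated 3, DMSO 3 and starved 1. Depth is unknown because TPM keeps no read number.

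The first question was how the feedback genes responded to each stress in WT cells and in the deletion lines. After starvation most of them rose: 7 of the 8 tested in WT, all 8 in GCN2del cells and 5 in PERKdel cells, and none fell (limma on log2(TPM + 1), adjusted p under 0.05). Level changes in such bulk libraries can come from a shift in the mix of cells or in RNA per cell, which cannot be told apart. Over all 16083 genes tested, 12.5% rose in WT, 11.7% in GCN2del cells and 5.75% in PERKdel cells, and 17.4% fell in WT. The median log2 change of the 8 genes was 1.097 in WT, 0.76 in GCN2del cells and 0.36 in PERKdel cells, against -0.047, -0.0015 and -0.017 over all genes. Thapsigargin, compared with DMSO, moved fewer of them and in both directions. In WT 1 of 8 rose and 3 fell, against 11.4% and 14.8% of all genes. In GCN2del cells 3 rose and 1 fell, against 25.4% and 11.3%. Higher genes made up 69.3% of all calls there, and 48.2% once TPM was rescaled by median of ratios. With that rescaling the rise of Dusp4 was lost (adjusted p = 0.247), and Etv4 (0.014) and Spred2 (6.7e-05) passed as lower. Quantile normalization lost the rises of Dusp4 (0.58), Spry1 (0.064) and Spry2 (0.067), and Etv4 (0.0098) and Spred2 (1.8e-06) again passed as lower. In PERKdel cells none rose and 4 fell, against 2.5% and 2.8%, with 47.1% of all calls higher as deposited and 59.6% after rescaling. The median of the 8 genes after thapsigargin was -0.11, 0.12 and -0.30 in the order of lines above, against -0.043, 0.078 and -0.038 over all genes.

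**Figure D1:**
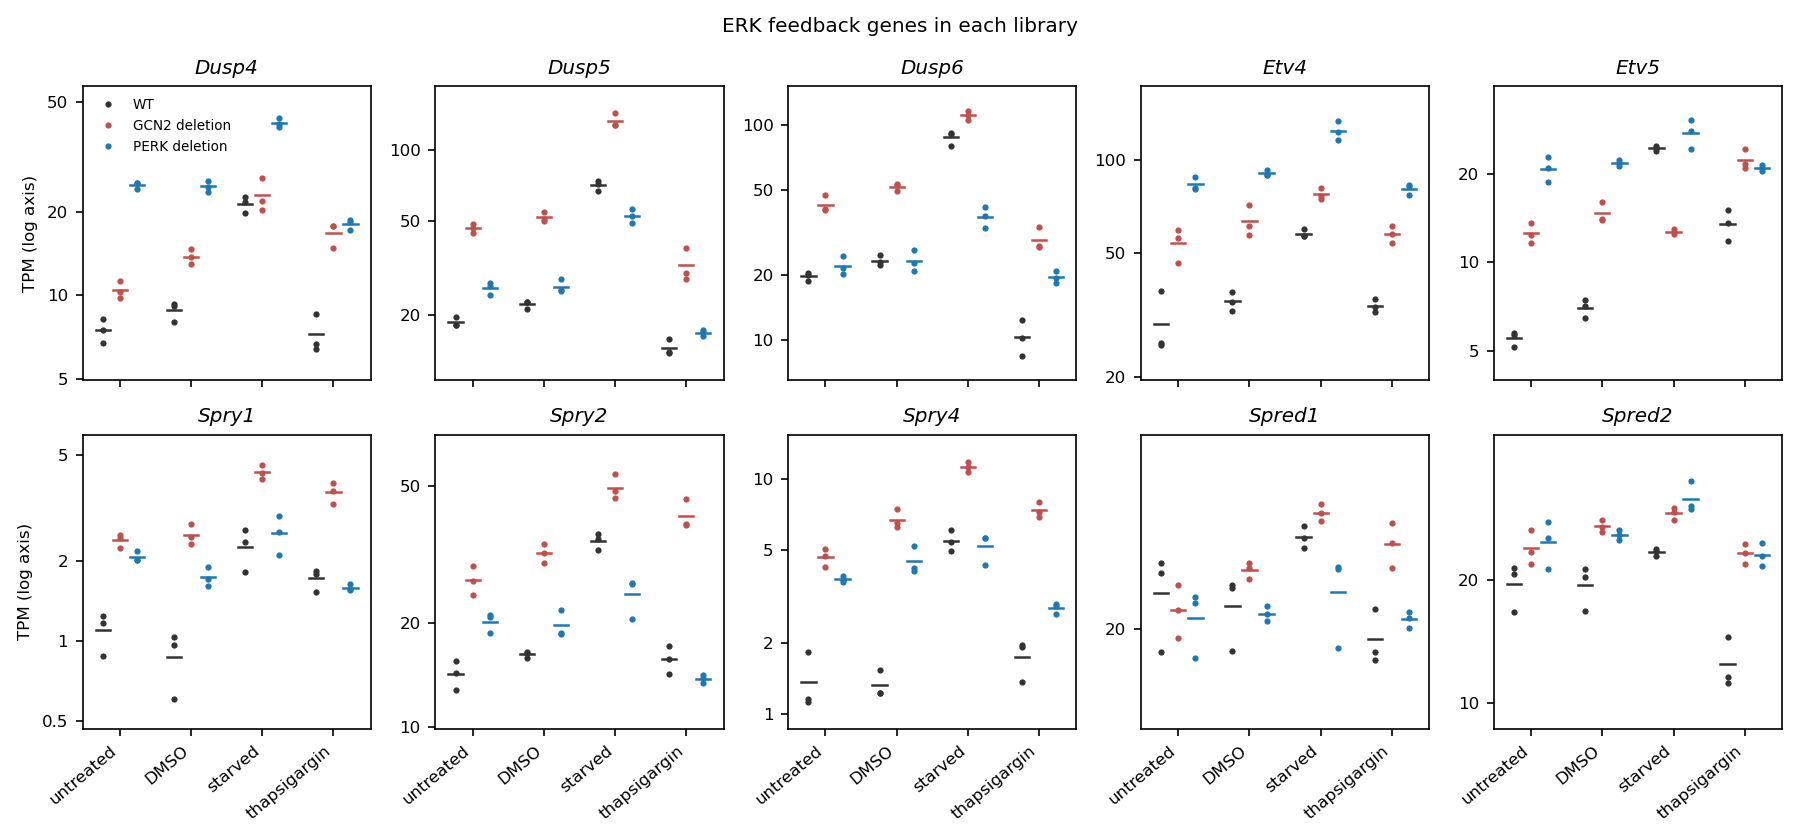
Level of each of the 10 genes in every library, in TPM on a log axis, by treatment and line; each point is a library and each bar the mean of 3. Starved cells stand highest within each line for Dusp4, Dusp5, Dusp6 and Etv4, whereas Etv5 of GCN2del cells is highest after thapsigargin.

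Dusp6 encodes a cytoplasmic phosphatase that strips phosphate from ERK, and it lies on chromosome 10 (99263231 to 99267489, GRCm38). In WT it read 18.8, 20.4 and 20.04 TPM untreated and 79.7, 91.0 and 91.8 TPM starved, a 4.43-fold ratio of means and a log2 difference of 2.09. With DMSO it read 22.3, 23.0 and 24.7 TPM and with thapsigargin 12.4, 8.46 and 10.2 TPM, a log2 difference of -1.11. The WT libraries of the 3 conditions did not overlap: starved cells stood far above their controls and thapsigargin cells below theirs.

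The same order was seen in both deletion lines, over a narrower span. In GCN2del cells Dusp6 read 40.5, 40.2 and 47.0 TPM untreated against 106, 112 and 117 starved, and 53.0, 52.6 and 49.3 with DMSO against 33.5, 27.0 and 27.4 with thapsigargin (log2 differences 1.37 and -0.80, the latter -0.53 against untreated cells). In PERKdel cells it read 24.5, 21.6 and 20.2 TPM untreated against 33.0, 37.8 and 41.4 starved, a log2 difference of 0.73. Thapsigargin there left it at 18.4, 20.9 and 19.4 TPM against 22.9, 26.2 and 20.8 with DMSO, groups that overlapped, with a log2 difference of -0.24.

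Dusp5 encodes a nuclear phosphatase that binds and holds ERK, and lies on chromosome 19 (53529109 to 53542431). It read 19.5, 18.1 and 18.1 TPM in untreated WT cells and 67.0, 73.7 and 71.9 TPM in starved ones. It rose 3.81-fold, a log2 change of 1.88 ± 0.081 (SE; adjusted p = 2.7e-16). Starved libraries stood above untreated ones in the deletion lines too, where Dusp5 rose by 1.495 ± 0.081 (GCN2del, adjusted p = 1.2e-13) and 0.99 ± 0.081 (PERKdel, 8.8e-10).

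Thapsigargin lowered Dusp5 in each line. WT libraries read 13.8, 13.7 and 15.8 TPM against 21.2, 22.6 and 22.7 with DMSO, a log2 change of -0.59 ± 0.081 (adjusted p = 2.0e-06). The change was -0.67 ± 0.081 in GCN2del cells (1.6e-07) and -0.62 ± 0.081 in PERKdel cells (3.5e-06), and treated and control libraries did not overlap in any line. Against untreated cells the WT change was -0.35 (0.0013). 547 exon bases of Dusp5 are shared with AC137853.2, annotated on the opposite strand, and whether the counting used strand is not given in the sources used here, so reads of the pair may not be fully separated.

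Dusp4, a nuclear phosphatase of ERK and the stress kinases on chromosome 8 (34807297 to 34819894), joined the other phosphatases in starvation. WT cells read 8.21, 7.49 and 6.73 TPM untreated and 19.9, 22.6 and 21.8 TPM starved, all 3 starved libraries being above all untreated ones. It rose by 1.41 ± 0.095 in WT (adjusted p = 3.7e-12), 1.06 ± 0.095 in GCN2del cells (2.8e-09) and 0.73 ± 0.095 in PERKdel cells (3.6e-06), and the GCN2del value was 0.69 against DMSO. After thapsigargin it fell by 0.43 ± 0.095 on the log2 scale in PERKdel cells (adjusted p = 0.0047), from 24.8 ± 1.18 to 18.2 ± 0.812 TPM.

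In the other lines the thapsigargin changes of Dusp4 were small. In WT it fell by 0.26 ± 0.095 (adjusted p = 0.042), with overlapping libraries. That call was lost without DMSO library 1 or 3 or thapsigargin library 2 or 3 (adjusted p 0.132 to 0.222), with quantile normalization (0.266), and with untreated cells as the control (log2 change -0.05). It was also lost with no filter (0.083), the replicate number as a block (0.051) and the compared groups alone (0.209). In GCN2del cells it rose by 0.27 ± 0.095 (adjusted p = 0.030), and that call was lost after median-of-ratios rescaling (log2 change 0.13), after quantile normalization (0.07) and without DMSO library 1 or 3 or thapsigargin library 1 or 2 (adjusted p 0.068 to 0.122), while against untreated cells the change was 0.64. No filter (0.057), the compared groups alone (0.097) and omission of the libraries over 2% microRNA genes (0.247) ended that call too.

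Etv5 encodes an Ets activator whose transcript is a common readout of growth factor signalling, and lies on chromosome 16 (22381309 to 22439719). In WT cells it read 5.69, 5.75 and 5.18 TPM untreated and 24.4, 23.9 and 24.9 TPM starved, a 4.403-fold ratio and a log2 difference of 1.96. With thapsigargin it read 15.01, 11.8 and 13.6 TPM against 7.12, 6.49 and 7.44 with DMSO, a log2 difference of 0.85. Thapsigargin-treated WT cells thus stood above their control for Etv5 and below it for Dusp6.

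The deletion lines differed from WT in the level of Etv5 and in where it moved. In GCN2del cells starved cells read 13.0, 12.7 and 12.5 TPM, among the untreated values of 11.7, 12.4 and 13.7, with a log2 difference of 0.02. That value was -0.03 without untreated library 1 and -0.19 against DMSO. Thapsigargin cells of this line read 24.3, 20.9 and 21.6 TPM against 16.0, 14.0 and 14.1 with DMSO, a log2 difference of 0.57 that was 0.37 after quantile normalization. In PERKdel cells Etv5 stood at 22.7, 20.9 and 18.8 TPM untreated and 24.3, 27.8 and 30.5 starved (0.39). Thapsigargin cells of this line, at 20.5 to 21.3 TPM, overlapped DMSO cells at 21.3 to 22.2 TPM only at the edge (-0.05).

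**Figure D2:**
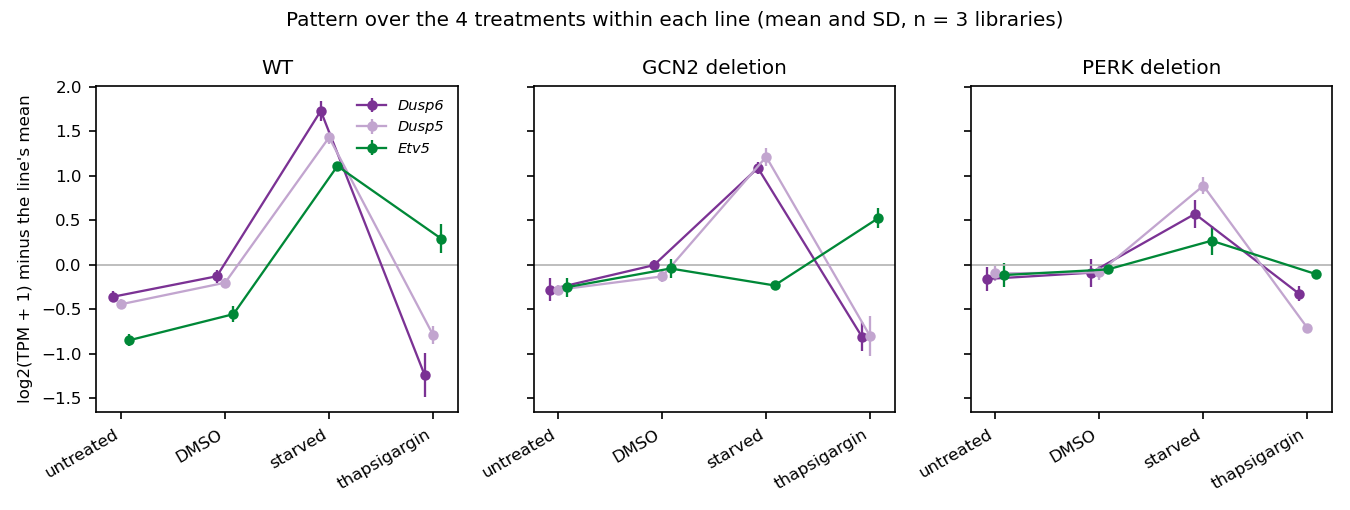
Dusp6, Dusp5 and Etv5 over the 4 treatments in each line, as log2(TPM + 1) minus the mean of the line; points are means of 3 libraries and bars their SD. Dusp6 and Dusp5 peak in starved cells and are lowest after thapsigargin in every line, while Etv5 of GCN2del cells is highest after thapsigargin.

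Etv4, the paralogous Ets factor on chromosome 11 (101769742 to 101785371), followed starvation but not thapsigargin. WT cells read 37.8, 25.7 and 25.4 TPM untreated, the first being the library with over 2% microRNA genes, and 59.8, 56.7 and 57.0 TPM starved. Etv4 rose by 0.96 ± 0.104 in WT (adjusted p = 3.3e-08), by 0.52 ± 0.104 in GCN2del cells (0.00048) and by 0.56 ± 0.104 in PERKdel cells (0.00040). With DMSO as the control, the change in GCN2del cells was 0.29 (adjusted p = 0.054), one of 3 calls in that line that this control ended. Thapsigargin gave -0.04 (95% interval -0.26 to 0.17), -0.13 (-0.35 to 0.08) and -0.17 (-0.38 to 0.05) in the order of lines above, none past the test. After median-of-ratios rescaling the change in GCN2del cells was -0.27 (adjusted p = 0.014), and quantile normalization gave -0.29 (0.0098).

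The Sprouty proteins act upstream of ERK, between receptor and Raf. Spry2, on chromosome 14 (105891947 to 105896819), was the most abundant of those measured. WT cells read 15.5, 14.3 and 12.8 TPM untreated and 32.6, 35.1 and 36.2 starved, a rise of 1.23 ± 0.094 (adjusted p = 4.0e-11). It rose by 0.87 ± 0.094 in GCN2del cells (7.4e-08). In PERKdel cells starved libraries at 20.5, 26.0 and 26.0 TPM overlapped untreated ones at 21.1, 20.8 and 18.6, with a change of 0.24 (0.05 to 0.44; adjusted p = 0.094). Without starved library 1 of this line, the one with a microRNA share over 2%, the change was 0.35 (0.016), and the call was also made after median-of-ratios rescaling (0.015) and quantile normalization (0.0099).

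After thapsigargin Spry2 gave a different value in each line. The change in WT was -0.05 (-0.24 to 0.14; adjusted p = 0.79), from 16.2 ± 0.334 to 15.7 ± 1.47 TPM. In GCN2del cells Spry2 rose from 33.9, 32.0 and 29.9 TPM to 45.7, 38.6 and 38.4 TPM, a change of 0.35 ± 0.094 (0.0044), which was 0.18 after quantile normalization (0.067) and 0.602 against untreated cells. In PERKdel cells it fell from 18.7, 21.8 and 18.6 TPM to 13.4, 13.8 and 14.2 TPM, a change of -0.48 ± 0.094 (0.0011). Treated and control libraries were separate in both deletion lines.

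Spry4, on chromosome 18 (38586247 to 38601415), was low in WT. WT cells read 1.84, 1.16 and 1.13 TPM untreated and 4.95, 5.38 and 6.04 TPM starved, a 3.97-fold rise (log2 change 1.45 ± 0.113, adjusted p = 5.8e-11). In GCN2del cells it rose from 4.64 ± 0.413 to 11.2 ± 0.571 TPM, a change of 1.12 ± 0.113 (2.3e-08), or 0.67 against DMSO. In PERKdel cells the rise was 0.37 ± 0.113 (0.027), from 3.74 ± 0.114 to 5.17 ± 0.743 TPM. That last call was lost against DMSO (0.17, adjusted p = 0.397), with a pseudocount of 0.1 (0.057), and without starved library 2 or 3 or any of the untreated libraries (0.0502 to 0.118). It was also lost with the compared groups alone (0.215).

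Thapsigargin lowered Spry4 in PERKdel cells, with a change of -0.51 ± 0.113 (0.0044) and libraries at 2.67, 2.93 and 2.89 TPM against 4.05, 5.18 and 4.17. Without DMSO library 2 the change was -0.42 (0.055), and against untreated cells it was -0.31 (0.090). With the compared groups alone the call was lost as well (0.053). The change was 0.23 in WT (adjusted p = 0.14) and 0.12 in GCN2del cells (0.46), and the latter passed as higher against untreated cells (0.57, adjusted p = 0.00019). In WT Spry4 passed as higher without thapsigargin library 2 (0.34, adjusted p = 0.045), after median-of-ratios rescaling (0.034) and after quantile normalization (0.0026).

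Spry1, on chromosome 3 (37639947 to 37644598), was the rarest of the 10 genes, at 0.873 to 4.32 TPM by group mean. In WT it rose under both stresses, from 1.25, 0.878 and 1.17 TPM untreated to 1.83, 2.62 and 2.36 TPM starved (0.64 ± 0.103, adjusted p = 2.1e-05), and from 0.970, 1.04 and 0.610 with DMSO to 1.84, 1.80 and 1.54 with thapsigargin (0.55 ± 0.103, 0.00017). With a pseudocount of 0.1 these WT changes were 0.98 and 0.93. In GCN2del cells it rose by 0.65 ± 0.103 in starvation (3.1e-05) and by 0.40 ± 0.103 with thapsigargin (0.0031), the latter being 0.29 (0.064) after quantile normalization. In PERKdel cells its changes of 0.20 (-0.01 to 0.41) and -0.08 (-0.30 to 0.13) did not pass, though starvation gave 0.36 against DMSO (0.021). 710 exon bases of Spry1 are shared with Gm42922 on the opposite strand, so its reads may also be mixed.

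Spred1 and Spred2 encode Sprouty-related membrane proteins that bring neurofibromin to Ras. Spred1, on chromosome 2 (117121374 to 117182279), ranged only 1.62-fold between its highest and lowest group mean, 31.1 ± 1.02 and 19.2 ± 2.04 TPM. It rose in starvation by 0.31 ± 0.117 in WT (adjusted p = 0.046) and by 0.52 ± 0.117 in GCN2del cells (0.0016), and gave 0.13 (-0.11 to 0.37) in PERKdel cells. The WT call was lost without untreated library 3 (0.16, adjusted p = 0.311) or any starved library (0.064 to 0.135), with the replicate number as a block (0.051), with the compared groups alone (0.22) and with no filter (0.093). The GCN2del call was lost against DMSO (0.30, adjusted p = 0.074). No thapsigargin change of Spred1 passed against DMSO, with values of -0.17, 0.13 and -0.03. Against untreated cells the GCN2del value was 0.35 (adjusted p = 0.018).

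Spred2, on chromosome 11 (19924375 to 20024026), had the lowest thapsigargin change in WT of the 8 tested genes, just under that of Dusp5. It went from 20.4, 16.8 and 21.3 TPM with DMSO to 14.6, 11.6 and 11.2 TPM, a change of -0.61 ± 0.102 (adjusted p = 3.5e-05), with separate libraries. The changes in the deletion lines were -0.21 (-0.42 to -0.00; 0.11) and -0.16 (-0.37 to 0.05; 0.53), and the first passed after median-of-ratios rescaling (-0.35, 6.7e-05) and quantile normalization (-0.40, 1.8e-06).

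Starvation changes of Spred2 were small and lay near the threshold in each line. They were 0.25 in WT (adjusted p = 0.060), 0.28 in GCN2del cells (0.044) and 0.35 in PERKdel cells (0.023). The WT value passed without untreated library 1 (0.32, adjusted p = 0.037) and after median-of-ratios rescaling (0.00048). The GCN2del call was lost in each fit that left out 1 compared library, untreated library 3 excepted (0.067 to 0.202), and against DMSO (0.10, adjusted p = 0.562). No filter (0.092) and the compared groups alone (0.0645) ended that call too. The PERKdel call was lost without starved library 3 (0.28, 0.124), without untreated library 3 (0.24, 0.152) and against DMSO (0.28, 0.076). It was also lost with the compared groups alone (0.245) and without the libraries over 2% microRNA genes (0.126).

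**Figure D3:**
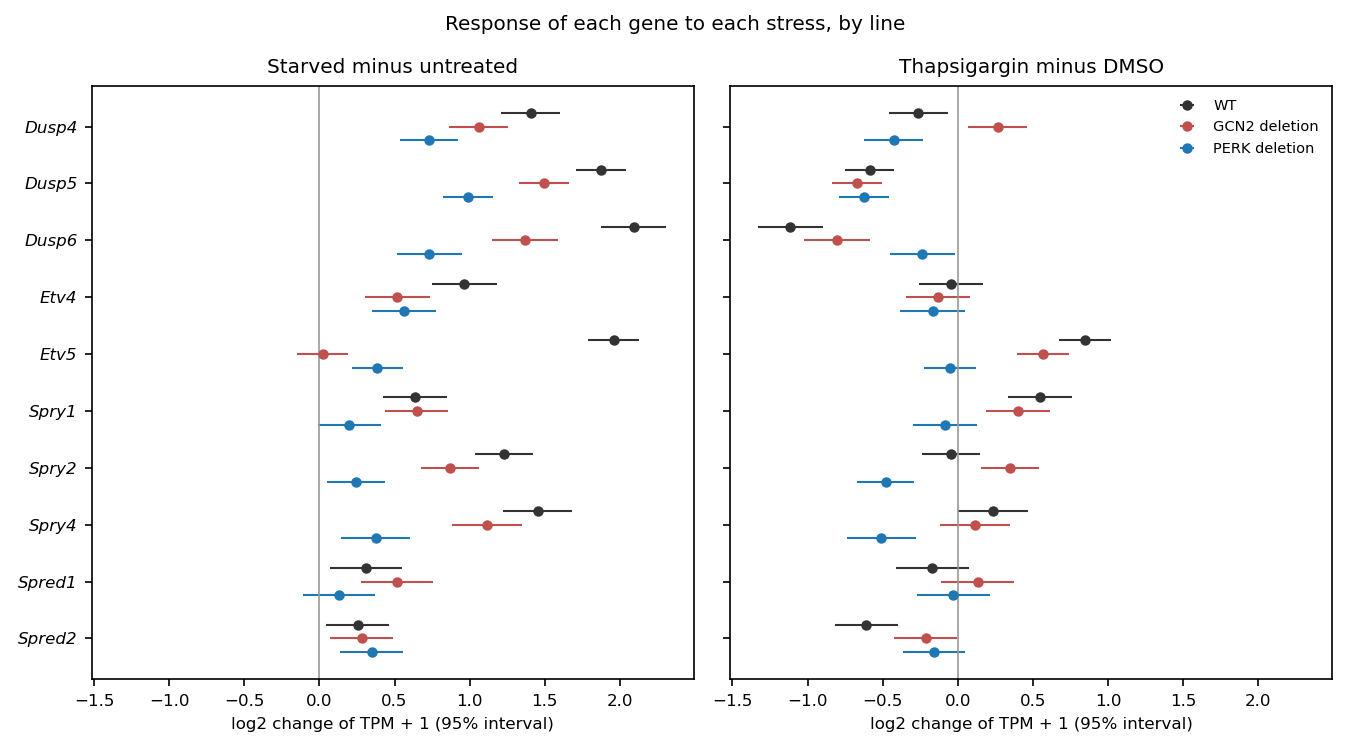
Log2 change of TPM + 1 for each gene, starved minus untreated on the left and thapsigargin minus DMSO on the right, by line; bars are 95% intervals of the limma fit. Starvation values lie above 0 for nearly all genes and are largest in WT for Dusp6, Etv5 and Dusp5, whereas thapsigargin values lie on both sides of 0. For Dusp6 and Etv5, by which the set was chosen, the bars are a description and not a test.

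The contrast of the 2 stress responses within a line asked whether starvation and thapsigargin acted differently on a gene. The starvation change exceeded the thapsigargin change for 6 of the 8 tested genes in each line, namely Dusp4, Dusp5, Etv4, Spry2, Spry4 and Spred2. Over all genes the same call was made for 5.77% in WT, 7.25% in GCN2del cells and 5.34% in PERKdel cells. In GCN2del cells 29.6% of all calls in this contrast were higher, and 49.7% after median-of-ratios rescaling.

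Dusp5 had the widest gap of the tested genes, 2.46 ± 0.114 in WT (adjusted p = 2.7e-15), 2.17 ± 0.114 in GCN2del cells (2.3e-14) and 1.61 ± 0.114 in PERKdel cells (3.0e-11). Spry1 gave 0.09 (-0.21 to 0.39), 0.25 (-0.05 to 0.55) and 0.28 (-0.02 to 0.58), none past the test, although with exchanged controls it passed in WT (0.43, adjusted p = 0.038) and PERKdel cells (0.61, 0.0050). As a description, the gap for Dusp6 was 3.20, 2.17 and 0.97, and that for Etv5 was 1.11, -0.55 and 0.44. With exchanged controls the gap of Etv5 was 0.52 in WT and -0.97 in GCN2del cells. Etv5 in GCN2del cells was the one negative value of this contrast among the 10 genes and 3 lines. Etv5 is 1 of the 2 genes by whose responses the set was chosen, so this value is a description.

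With the controls exchanged, that is starvation against DMSO and thapsigargin against untreated cells, 1 of 8 genes passed in GCN2del cells. Dusp5 was that gene, while Dusp4 was then at 0.05, Etv4 at 0.19, Spry2 at 0.01, Spry4 at 0.10 and Spred2 at 0.14. Beside this, DMSO libraries of that line stood above the untreated ones for several of these genes. In PERKdel cells the Spred2 call (0.50, adjusted p = 0.023) was lost without starved library 3, DMSO library 2, thapsigargin library 1 or untreated library 3 (0.0545 to 0.0825). It was also lost with exchanged controls (0.094), the compared groups alone (0.056) and without the libraries over 2% microRNA genes (0.073). In WT Spred1 (0.48, adjusted p = 0.059) passed without untreated library 1 or 2, DMSO library 2 or thapsigargin library 1 (0.017 to 0.041), and with exchanged controls (0.61, 0.010). Those controls also gave 0.496 for Etv4 in WT (adjusted p = 0.018) and 0.48 for Spry4 in PERKdel cells (0.047), calls that stood at lower values.

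The difference of a response from WT asked whether a deletion line responded unlike WT. The starvation rise was smaller in PERKdel cells than in WT for 4 of the 8 tested genes, against 5.34% of all genes. The differences on the log2 scale were -0.68 ± 0.135 for Dusp4 (adjusted p = 0.00086), -0.89 ± 0.114 for Dusp5 (2.6e-06), -0.98 ± 0.132 for Spry2 (5.1e-06) and -1.08 ± 0.159 for Spry4 (2.1e-05). These 4 calls were made in every fit that left out 1 library, and the Dusp4 difference was -0.45 with exchanged controls. Etv4 (-0.40, adjusted p = 0.085) passed without WT untreated library 1 (-0.58, 0.00096), and Spry1 (-0.44, 0.054) passed without starved library 3 of PERKdel cells, WT starved library 1 or WT untreated library 1 or 3 (0.018 to 0.0496). Dusp6 and Etv5 differed by -1.36 and -1.57, as a description.

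In GCN2del cells the starvation rise was smaller than in WT for 1 of 8 genes, against 4.17% of all genes. That gene was Dusp5, with a difference of -0.38 ± 0.114 (adjusted p = 0.036). The call was lost in 8 of the 12 fits that left out 1 compared library (0.0527 to 0.0943), those without WT untreated library 1, WT starved library 1, untreated library 1 and starved library 3 of the deletion line being the exceptions. It was also lost with the controls exchanged (-0.29, adjusted p = 0.151) and with no filter (0.0686). Exchanged controls instead gave Dusp4 (-0.50, 0.017), Spry2 (-0.43, 0.042) and Spry4 (-0.80, 0.0011) as smaller than in WT. Median-of-ratios rescaling added Dusp4 (-0.40, 0.030), Etv4 (-0.50, 0.0069) and Spry2 (-0.41, 0.0074), and quantile normalization added these 3 and Spry4 (-0.42, 0.033). Dusp4 passed without starved library 3 of the deletion line (-0.45, 0.034), and Etv4 without WT untreated library 1 (-0.63, 0.00050) or untreated library 1 of the deletion line (-0.55, 0.021). Dusp6 differed by -0.72 and Etv5 by -1.94, with no test. Both deletion lines were compared with the same WT libraries, so their differences are not independent of each other.

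The thapsigargin response differed from WT in a few genes of each deletion line. In PERKdel cells 3 of 8 were lower and 1 higher, against 7.38% and 5.59% of all genes: Spry1 by -0.63 ± 0.146 (adjusted p = 0.0036), Spry2 by -0.43 ± 0.132 (0.028), Spry4 by -0.74 ± 0.159 (0.0017) and Spred2 by 0.45 ± 0.144 (0.035). The Spry2 call was lost in 7 of 12 fits that left out 1 library (0.0504 to 0.0955) and the Spred2 call in 8 of 12 (0.0582 to 0.111), so that 2 to 4 of the genes were called in such fits. The omissions that kept the Spry2 call were WT DMSO 2 and thapsigargin 2 and, of the deletion line, DMSO 1 and 3 and thapsigargin 3. Those that kept the Spred2 call were WT DMSO 2 and thapsigargin 1 and, of the deletion line, DMSO 2 and thapsigargin 1. Dusp6 differed by 0.88 and Etv5 by -0.90, with no test.

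In GCN2del cells Dusp4 (0.53 ± 0.135, adjusted p = 0.011) and Spry2 (0.39 ± 0.132, 0.046) responded above WT, 2 of 8 genes against 12.3% of all genes. This contrast moved most with scaling: 86.3% of all calls were higher as deposited and 54% after median-of-ratios rescaling, under which the median of all genes fell by 0.153. Dusp4 then stood at 0.35 (adjusted p = 0.0505) and Spry2 at 0.20 (0.18), so neither passed. Both calls were also lost after quantile normalization, with Dusp4 at 0.20 (0.289) and Spry2 at 0.15 (0.387). The Spry2 call was also lost with the replicate number as a block (0.055) and in 8 of 12 fits that left out 1 library (0.062 to 0.142), the exceptions being WT thapsigargin 1, DMSO 1 of the deletion line, and thapsigargin 2 and 3 of that line. Spred2 (0.40, adjusted p = 0.063) passed without WT DMSO library 2 (0.018) or WT thapsigargin library 1 (0.014). With the controls exchanged Spred1 (0.58, adjusted p = 0.0089) and Spred2 (0.58, 0.0034) passed, and after quantile normalization Spry4 passed as lower than WT (-0.42, 0.034). Dusp6 differed by 0.31 and Etv5 by -0.28, with no test. Those values were 0.13 and -0.47 after median-of-ratios rescaling, and 0.010 and -0.52 after quantile normalization.

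Untreated cells of the deletion lines were compared with untreated WT cells. Of the 8 tested genes 7 were higher in GCN2del cells and none lower, against 21.2% of all genes higher and 23.2% lower. In PERKdel cells 7 were higher and none lower, against 31.2% and 18.6%. Higher genes made up 62.7% of all calls in PERKdel cells and 50.2% after median-of-ratios rescaling. The untreated libraries are also the control of the starvation responses, so a high level here and a small starvation change share those values.

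**Figure D4:**
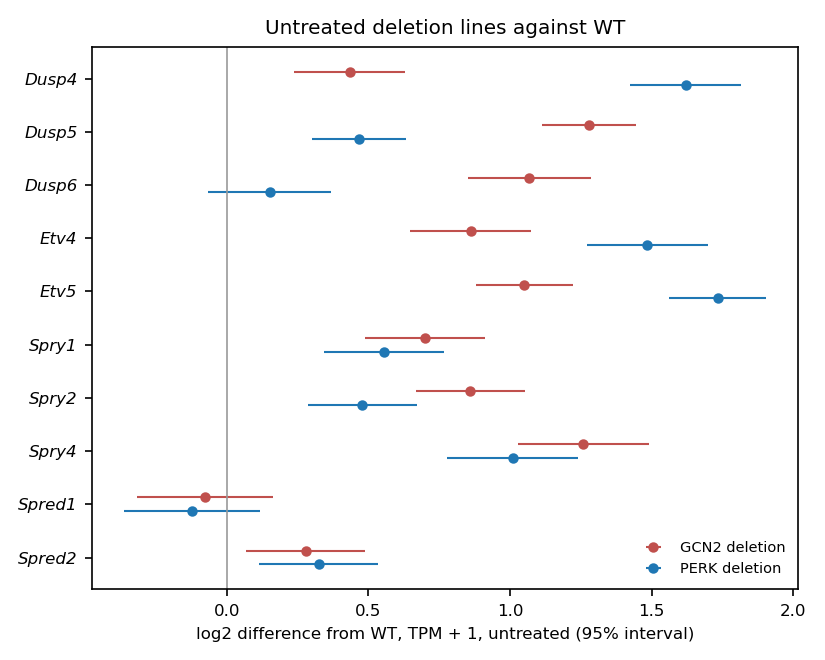
Log2 difference of untreated cells of each deletion line from untreated WT cells for the 10 genes, with 95% intervals of the limma fit. For Dusp6 and Etv5, by which the set was chosen, the intervals are a description and not a test. Nearly all values lie above 0; Dusp5, Dusp6 and Spry2 stand further from WT in GCN2del cells, and Dusp4, Etv4 and Etv5 in PERKdel cells.

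The 2 deletion lines differed from WT by unlike amounts for each gene. Dusp5 was higher by 1.28 ± 0.081 in GCN2del cells (adjusted p = 1.7e-13) and by 0.47 ± 0.081 in PERKdel cells (2.0e-05), with means of 46.6 and 26.1 TPM against 18.6 in WT. With DMSO cells compared in place of untreated ones, the latter was 0.24 (0.015). As a description, Dusp6 differed by 1.07 in the former, at 42.6 ± 3.85 against 19.7 ± 0.858 TPM, and by 0.15 in the latter, where it was 0.042 after median-of-ratios rescaling. Dusp4 was higher by 0.43 ± 0.095 (0.00046) and 1.62 ± 0.095 (4.0e-14), its untreated level in PERKdel cells, 25.0 ± 0.676 TPM, standing above that of starved WT cells, 21.5 ± 1.40 TPM.

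The Ets factors stood furthest above WT in PERKdel cells. Etv4 was higher by 1.48 ± 0.104 there (adjusted p = 1.8e-12) and by 0.86 ± 0.104 in GCN2del cells (8.8e-08). Etv5, as a description, differed by 1.73 and 1.05, with all untreated libraries of both lines above those of WT.

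Among the upstream inhibitors, Spry4 was higher by 1.26 ± 0.113 in GCN2del cells (2.7e-10) and 1.01 ± 0.113 in PERKdel cells (1.8e-08). Spry2 was higher by 0.86 and 0.48, and Spry1 by 0.70 and 0.55. In PERKdel cells Spry2 was higher by 0.26 (0.020) with DMSO cells compared, and Spry1 by 0.36 (0.016) after quantile normalization. Spred1 gave -0.08 (-0.32 to 0.16) and -0.12 (-0.36 to 0.12), neither past the test, although the second passed as lower after median-of-ratios rescaling (-0.23, adjusted p = 0.017). Spred2 was higher by 0.28 (0.027) and 0.32 (0.0093). Those Spred2 calls were lost without WT untreated library 3 (0.17 with adjusted p = 0.186, and 0.22 with 0.092), without untreated library 3 of GCN2del cells (0.20, 0.147) and without untreated library 1 of PERKdel cells (0.24, 0.076). The compared groups alone ended both (0.172 and 0.157), and no filter ended that of GCN2del cells (0.0519).

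DMSO alone, against untreated cells, gave no call among the 8 tested genes in any line at an adjusted p under 0.05 by limma, where 0.118%, 0.149% and 0.242% of all genes were called in WT, GCN2del cells and PERKdel cells. At an unadjusted p under 0.05 the numbers were 3, 4 and 0 of 8. The share of all genes under that looser threshold was not computed, so the shares above are no background for these numbers. In GCN2del cells DMSO libraries stood wholly above untreated ones for 7 of the 10 genes, among them Spry4 at 7.41, 6.23 and 6.48 TPM against 4.21, 4.69 and 5.03 (0.45, adjusted p = 0.14) and Dusp4 at 13.0, 14.7 and 13.8 against 9.75, 10.3 and 11.3 (0.37, 0.15). Spry4 passed there after median-of-ratios rescaling (0.042) and quantile normalization (0.030). Etv4 passed in WT without the libraries over 2% microRNA genes (0.44, 0.023). In WT 4 of the 10 were separate and higher, and in PERKdel cells 2 were higher and 1 lower. Dusp6 and Etv5, by which the set was chosen, are among the separate genes of WT and GCN2del cells. The share of all genes with separate libraries was not computed, so these numbers have no background and are a description.

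Ranked by mean over the 12 groups, starved cells headed the order for every one of the 10 genes, as a description. The share of all genes headed by a starved group was not computed, and Dusp6 and Etv5 were chosen by their stress responses. For Etv5 and Spred2 the libraries of the highest group overlapped those of the next. The starved GCN2del group was highest for Dusp5 (133 TPM), Dusp6 (111 TPM), Spry1, Spry2, Spry4 and Spred1, and the starved PERKdel group for Dusp4 (42.1 TPM), Etv4 (124 TPM), Etv5 (27.5 TPM) and Spred2. The lowest group was thapsigargin-treated WT for Dusp4, Dusp5, Dusp6, Spred1 and Spred2, untreated WT for Etv4 and Etv5, DMSO WT for Spry1 and Spry4, and the thapsigargin-treated PERKdel group for Spry2. The ratio of the highest to the lowest mean was 10.7 for Dusp6, 9.23 for Dusp5, 8.39 for Spry4, 5.82 for Dusp4, 4.97 for Etv5, 4.95 for Spry1, 4.18 for Etv4, 3.58 for Spry2, 2.55 for Spred2 and 1.62 for Spred1. Of the 11 pairs of neighbours in the order, 2 overlapped in their libraries for Dusp5, 6 for Dusp4, Dusp6 and Spry4, 7 for Etv4, Spry1 and Spry2, 8 for Etv5 and Spred2, and 10 for Spred1.

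The Etv5 order shows how its levels bunch. From starved PERKdel cells (27.5 TPM) through starved WT (24.4), thapsigargin-treated GCN2del (22.3) and the other PERKdel groups down to untreated PERKdel cells (20.8), each neighbour overlapped the next. A gap followed, then a second run from GCN2del cells with DMSO (14.7) to untreated ones (12.6), which also took in thapsigargin-treated WT (13.5). DMSO-treated and untreated WT cells stood alone at 7.02 and 5.54 TPM.

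Likeness of pattern was measured as Pearson's r over the 12 group means of log2(TPM + 1), each centred on the mean of its line, among 11830 genes with at least 5 TPM in some group. It is a description over groups that share lines and controls. The genes closest to Dusp6 were Msn (0.9759), Has2 (0.971), Fam171a1 (0.9703), Ghr (0.9668) and Fgf2 (0.9667), and Dusp5 had rank 11 (0.9573). Of the other feedback genes Spred2 had 0.8672 with Dusp6, Etv4 0.8597, Dusp4 0.8373, Spry4 0.8073, Spred1 0.8046 and Spry2 0.7795. Spry1 (0.5037) and Etv5 (0.3435, rank 2880) were furthest from it. Dusp6 and Etv5 were chosen for responses that differ, so the low value of this pair is part of the choice.

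The genes closest to Etv5 were Tnfaip2 (0.9764), Cr1l (0.9706), Gpr137b-ps (0.9617), Soat2 (0.9591) and Gnpnat1 (0.9561). Of the feedback genes Spry1 (0.7137), Spry4 (0.7055), Spry2 (0.6946) and Etv4 (0.6608) came nearest to Etv5, and Spred2 (0.08945) was furthest.

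The rest of the pathway was read from lists of named genes, whose counts stand against 12.5% of all genes higher and 17.4% lower in starved WT cells, and 11.4% and 14.8% with thapsigargin. Ligands that start the cascade held 15 tested genes, of which 8 rose and 0 fell in starved WT cells, led by Fgf21 (3.10), a hormone-like stress target, and Fgf2 (2.10), which went from 1.61 ± 0.435 to 10.2 ± 1.78 TPM. After thapsigargin 2 ligands rose in WT, Fgf21 (3.70) and Pdgfc (1.05), and 5 fell, with Pdgfb (-1.36) and Hbegf (-0.57) at the head. The 8 receptors gave 2 higher, Egfr (0.70) and Pdgfra (0.47), and 3 lower, led by Fgfr2 (-0.86) and Fgfr3 (-0.54), in starvation, and 3 lower, led by Met (-0.73) and Erbb2 (-0.68), with thapsigargin.

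The core cascade from Grb2 to ERK and its kinases moved in both directions. Of its 18 genes 3 rose and 5 fell in starved WT cells, with Sos2 (0.83) on one side and Rps6ka1 (-0.76) and Ksr1 (-0.72) on the other. With thapsigargin 2 rose, Sos2 (0.62) and Map2k1 (0.20), and 4 fell, led by Ksr1 (-0.57) and Nras (-0.53). The list median was 0.043 and -0.13 in the 2 comparisons.

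Other brakes on receptors, Ras and MAP kinases were also listed. Of 14 tested 5 rose and 3 fell in starved WT cells, and 10 rose and 1 fell in starved GCN2del cells, against 11.7% and 12.2% of all genes in that line. Errfi1, an inhibitor of the EGF receptor, rose by 1.79 and Dusp2 by 0.65, while Cic, the gene of the repressor capicua, changed by -0.99 and Il17rd by -0.38. Cic libraries of untreated WT varied widely, at 98.7 ± 37.9 TPM. With thapsigargin 1 rose, Dusp8 (0.43), and 7 fell, led by Il17rd (-0.68) and Dusp10 (-0.65).

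Other transcriptional targets of ERK followed the feedback genes in starvation. Of the 15 listed 13 rose and none fell in WT, with a median of 1.08, led by Myc (2.09, from 135 ± 1.12 to 576 ± 41.7 TPM) and Egr2 (1.91). In GCN2del cells 13 rose and in PERKdel cells 10, against 11.7% and 5.75% of all genes, and none fell in either. With thapsigargin 3 rose in WT, among them Myc (1.42) and Ier2 (0.33), and 8 fell, led by the immediate early gene Egr1 (-1.13) and the cyclin gene Ccnd1 (-1.04). In PERKdel cells 10 fell and 0 rose with thapsigargin, against 2.8% and 2.5% of all genes, and in GCN2del cells 6 rose and 5 fell, against 25.4% and 11.3%. Many factors besides ERK act on these genes, Myc and Egr1 among them.

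For scale, the stress pathway itself moved as follows. Ddit3, the gene of the stress factor CHOP, read 65.2 ± 2.08 TPM in untreated WT cells, 252 ± 19.5 starved and 921 ± 36.3 with thapsigargin. Starved cells stood at 16.7 ± 0.0895 TPM in GCN2del cells against 36.5 ± 1.99 untreated, and at 43.3 ± 3.15 against 52.6 ± 2.10 in PERKdel cells. Ddit3 was thus below its untreated mean in starved cells of both deletion lines. A link between its level and that of the feedback genes was not tested. With thapsigargin Ddit3 read 475 ± 21.0 TPM in GCN2del cells and 268 ± 1.59 TPM in PERKdel cells. Of the 7 genes of the stress list 4 rose and 1 fell in starved WT cells and 6 rose and 0 fell with thapsigargin. In starved GCN2del cells 5 fell and 0 rose, against 12.2% and 11.7% of all genes. In starved PERKdel cells 1 fell and 0 rose, against 6.39% and 5.75%: Ddit3 changed by -0.27 (adjusted p = 0.0034), whereas Trib3 (0.27, 0.157) and the asparagine synthetase gene Asns (0.15, 0.075) did not pass.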

How the data were processed

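RNA sequencing libraries of total RNA, made with a stranded kit per the labels' protocols, were quantified by the authors with kallisto after FastQC, on mm10 per the submitters' processing notes, with versions not given in the sources used here. The deposited values are TPM per gene symbol, summing to 999999.827 to 1000000.09 in each of 36 columns. TPM keeps no read depth, so no counting interval was given.

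Log2(TPM + 1) was kept for 16083 genes, those reaching 1 TPM in 3 or more libraries, and was fitted with limma 3.58.1 (R 4.3.3), 12 groups in 1 model with trended variance and 24 residual degrees of freedom. P-values were adjusted by Benjamini and Hochberg over all genes tested in each of 18 comparisons and called under 0.05. Fold changes on this scale understate those of low genes. Replicate numbers did not pair libraries: same-numbered libraries of different groups had a median correlation of deviations of 0.001053 over 198 pairs, and 3.03% were over 0.1.

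The 10 genes and the pathway lists were chosen with earlier results of these data known. Since the choice used levels of Dusp6 and Etv5, these were tested in no comparison, including those of lines and of DMSO where a test had been planned. Named genes outside the 10 were, from each list, up to 2 with the largest rise and up to 2 with the largest fall among those called in either WT stress comparison, and the 5 closest in pattern to Dusp6 and Etv5; 1 gene that the rule names is not reported here. Marker lists for endothelial, neural and muscle cells had 2 of 5, 4 of 6 and 1 of 5 genes reaching 1 TPM, and leukocyte markers 1 of 6 (Cd68). Loci are from GENCODE on GRCm38, and figures were drawn with matplotlib 3.10.9. Alternatives were other scalings, filters, a pseudocount of 0.1, untrended variance, a replicate block, the compared groups alone, exchanged controls and omission of each library. Fits without libraries over 2% microRNA genes, and with protein-coding genes alone, were added after seeing the data.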

Additional observations from a re-analysis of the deposited data

Results flagged for a closer look

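A number of responses of a deletion line differed from the WT response by limma's test of the difference at an adjusted p under 0.05. For starvation these were Dusp5 in GCN2del cells (log2 difference -0.38) and, in PERKdel cells, Dusp4 (-0.68), Dusp5 (-0.89), Spry2 (-0.98) and Spry4 (-1.08). For thapsigargin they were Dusp4 (0.53) and Spry2 (0.39) in GCN2del cells, with PERKdel cells giving Spry1 (-0.63), Spry2 (-0.43), Spry4 (-0.74) and Spred2 (0.45). Several of these calls were fragile. The starvation call of Dusp5 in GCN2del cells and the thapsigargin calls of Spry2 and Spred2 in PERKdel cells were lost in most fits that left out 1 library. Both thapsigargin calls of GCN2del cells were lost after median-of-ratios rescaling (adjusted p = 0.0505 and 0.18). The shares over all genes stand with each contrast above. The lines share their WT libraries, and what distinguishes a line beyond its genotype cannot be told apart from the deletion.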

How the results depend on the processing

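The log2 values of the genes kept their side of the threshold and where called their direction (Dusp6 and Etv5, which had no test, moved by less than 1 SD) in 153 of 180 cases after median-of-ratios rescaling, 146 of 180 after quantile normalization, 84 of 130 with the controls exchanged and 1416 of 1500 when 1 library was left out. They did so in 18 of 20 cases with DMSO in place of untreated cells for the lines. The cause of the changes below was not tested. Among called values, and those of Dusp6 and Etv5, the sign turned for these 2 alone. For Etv5 the starvation value in GCN2del cells was -0.19 against DMSO and -0.028 to 0.078 when 1 library was left out, and the thapsigargin value in PERKdel cells was 0.0025 after quantile normalization and 0.012 against untreated cells. When 1 library was left out, the DMSO values in PERKdel cells were -0.0043 to 0.127 for Etv5 and -0.013 to 0.145 for Dusp6. The Dusp6 difference of untreated PERKdel cells from WT was -0.0085 with DMSO cells compared.

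Counts of genes called moved as follows. With the controls exchanged, 5 were called for starvation in GCN2del cells in place of 8, and 1 in place of 6 for starvation minus thapsigargin there. For starvation in PERKdel cells 3 were called with the compared groups alone, in place of 5, and 3 to 6 when 1 library was left out. For DMSO in WT, 1 was called in place of 0 without the libraries over 2% microRNA genes, and for DMSO in GCN2del cells 1 after both scalings. The starvation difference of GCN2del cells (1 call) gave 4 after median-of-ratios rescaling, 5 after quantile normalization, 0 with no filter, 3 with exchanged controls, 4 without the microRNA-rich libraries, 2 with protein-coding genes alone and 0 to 2 when 1 library was left out. The thapsigargin difference of that line (2 calls) gave 0 after median-of-ratios rescaling and 1 after quantile normalization. That 1 call was Spry4 as lower than WT, with Dusp4 and Spry2 both lost. It gave 1 each with no filter, with a pseudocount of 0.1 and with the replicate block, 0 with the compared groups alone, 4 with exchanged controls and 1 to 3 when 1 library was left out. The thapsigargin difference of PERKdel cells (4 calls) gave 2 with no filter and 2 to 4 when 1 library was left out. The replicate block ended 3 calls in all, in a set whose numbers share no label-based pairing. These were Spred1 in starved WT, Dusp4 in WT with thapsigargin, and the Spry2 thapsigargin difference of GCN2del cells.

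Over all genes, the compared groups alone gave 2272 calls in place of 4810 for starved WT, 246 in place of 1951 for starved PERKdel cells, 840 and 729 in place of 1263 and 1757 for the starvation differences of GCN2del and PERKdel cells, 1487 in place of 2292 for the thapsigargin difference of GCN2del cells, and 4436 and 4718 in place of 7145 and 8008 for the untreated lines. Exchanged controls gave 1540 in place of 853 for thapsigargin in PERKdel cells, 5734 and 3234 in place of 2292 and 2086 for the thapsigargin differences, and 3451 in place of 1921 for starvation minus thapsigargin in WT. Without the microRNA-rich libraries there were 1393 calls for thapsigargin in PERKdel cells and 4431 for the thapsigargin difference of GCN2del cells. The latter gave 1156 to 1513 calls in 6 of the fits without 1 library, and the starvation difference of this line 1899 without WT untreated library 3. DMSO calls, 19, 24 and 39, ranged from 2 to 206 over the settings for all libraries or without the microRNA-rich ones, and reached 1456 in WT without untreated library 3. The share of higher DMSO calls went from 36.8% to 63.3% in WT after quantile normalization and from 56.4% to 34.6% in PERKdel cells after median-of-ratios rescaling, which also moved the median of starvation minus thapsigargin in GCN2del cells by 0.104.

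The limits are those of technical replicates, 1 line per genotype, unknown depth, and a starvation group with no matched change of medium among the groups. Low levels of Spry1 and Spry4 in WT make their log2 values depend on the pseudocount.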
